A study of Mus musculus with 6 samples.

Results

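The nuclear genes of the mitochondrial respiratory chain were compared in soleus of mice, a postural calf muscle with slow and fast oxidative fibres. They were the genes whose symbols start with Ndufa, Ndufb, Ndufc, Ndufs, Ndufv, Uqcr, Cox4 to Cox8 or Atp5, together with Sdha to Sdhd, Cyc1 and Cycs. The rule used names and no measured value. It gave 91 of the 19938 genes measured: 34 of complex I, 4 of complex II, 9 of complex III, 19 of complex IV, 17 of complex V, 7 complex I assembly factors whose names share the Ndufa prefix, and cytochrome c. Ndufa4 and its paralog Ndufa4l2 were counted with complex IV, where Ndufa4 is now placed. Another 6 transcript clusters, the units of the array that each stand for 1 transcribed locus, listed a matching symbol beside a second gene and were left out, so Cox7c and Ndufb4 were not analysed here. No subunit encoded in mitochondrial DNA was among the genes measured (0 symbols starting with mt-).

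Total RNA was measured on 6 arrays of the type Affymetrix Mouse Gene 1.0 ST, in 3 groups of 2: hindlimb suspension with electroacupuncture, hindlimb suspension alone, and control. Every sample was labelled as soleus of male C57BL/6 mice aged 8 weeks. In hindlimb suspension the hind feet are kept from touching the floor, and the unloaded soleus wastes. Electroacupuncture passes a current through inserted needles; the points, the current and the days of suspension are not given in the sources used here. The study describes duplicate hybridizations, and nothing states that duplicates are different animals, so the p-values measure the spread between these arrays, which may be technical.

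Complexes I to IV pass electrons to oxygen and, except for complex II, pump protons out of the mitochondrial matrix, and complex V, the ATP synthase, uses the returning protons to make ATP. Slow fibres depend on this chain for sustained contraction. Their subunit genes are known to be raised together by the coactivator PGC-1alpha acting with the factors NRF-1, GABP and estrogen-related receptors.

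Signals are on the log2 scale, and a difference of 1 means a doubling of signal. The chain genes were well measured: 90 of 91 had a mean signal above 3.50, the 95th percentile of 1027 olfactory receptor genes that served as background, and their median signal was 9.82 against 4.58 for all genes. The exception was Cox7b2, an isoform of complex IV subunit 7b, at a mean of 1.75. The 9 markers of slow muscle had mean signals from 10.30 to 12.75, so genes typical of the slow fibres of soleus were present. The array medians of all genes lay between 4.55 and 4.61. The control arrays stood apart from each other: control array 2 exceeded control array 1 in 75 of 91 chain genes, in 9 of 9 slow-fibre markers (mean gap 0.35) and in 7 of 7 adipocyte markers (mean gap 1.69). The summed linear signal of those adipocyte markers was 1121 and 1077 in the electroacupuncture group and 962 and 914 in suspension. In control it was 927 and 2218. Of the 3 brown adipocyte genes, Ucp1 and Elovl3 were at background. Cidea lay above background, at 4.24 and 4.46 on the control arrays. The medians of the chain and of its complexes against control are therefore also given without each of these arrays.

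In suspended soleus most chain genes had lower signals than in control, and 1 passed the test. Ndufaf1, which encodes an assembly factor of complex I, fell by 43.7%, to 7.73 and 7.61 on the suspension arrays, against 8.46 and 8.54 on the control arrays (log2 difference -0.83 ± 0.13 SE, adjusted p = 0.0234). The other 90 genes did not pass. The median difference over the 91 genes was -0.22, against 0.01 over all genes, and the differences ran from -0.83 (Ndufaf1) to 0.46 (Ndufa7). Differences were below 0 for 80 of 91 chain genes and for 48.9% of all genes. Without control array 1 the count was 86 and the median -0.33. Without control array 2 it was 58 and the median -0.08.

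The share of genes called was small throughout this data set: 0.512% of all genes were called lower and 0.537% higher at an adjusted p under 0.05. At an unadjusted p under 0.05, 24 chain genes were lower and 0 higher, where 6.09% of all genes were lower and 6.63% higher. The 24 became 55 without control array 1 and 19 without control array 2, and 12 without either suspension array. Both suspension arrays lay below both control arrays for 52 chain genes (18.5% of all genes) and above both for 2, Atp5g2 and Cox8c (21.3% of all genes). In bulk muscle, fewer fibres rich in mitochondria and less of these transcripts in each fibre cannot be told apart.

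By complex, the median difference in suspension was -0.24 for complex I, -0.29 for complex II, -0.24 for complex III, -0.06 for complex IV and -0.21 for complex V, with -0.35 for the assembly factors and -0.68 for cytochrome c. The number below 0 was 31 of 34, 4 of 4, 9 of 9, 13 of 19 and 15 of 17 for complexes I to V, and 7 of 7 for the assembly factors. These medians moved with the control array used. Without control array 1 they were -0.39, -0.33, -0.44, -0.25 and -0.31 for complexes I to V, and without control array 2 they were -0.07, -0.26, -0.15, 0.13 and -0.17. With both control arrays complex IV lay nearest to the median of all genes, and without control array 2 complex I did. The 19 complex IV genes include isoforms with low signals. Cox7b2, Cox8c, Cox6b2 and Cox4i2 had mean signals of 1.75, 4.05, 4.27 and 5.28. Their suspension differences of 0.15, 0.15, -0.04 and -0.03 all lay above the complex IV median, which was not computed without them. The difference between complexes was not tested.

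**Figure D1:**
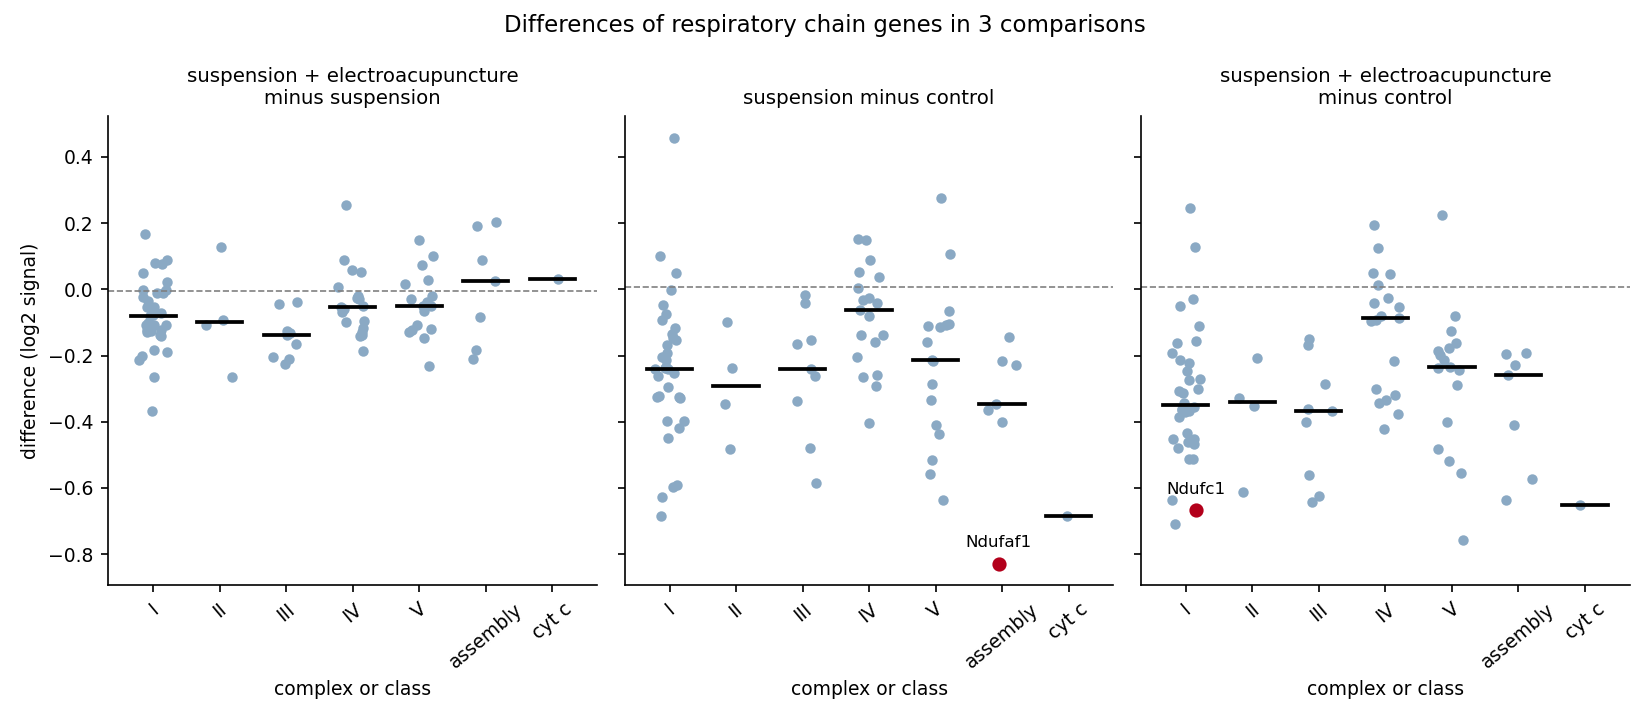
Log2 differences of the 91 respiratory chain genes (points) by complex in 3 comparisons, with the median of each class as a black bar, the median of all genes as a dashed line, and genes past an adjusted p of 0.05 in red. Ndufaf1 at -0.83 in suspension minus control and Ndufc1 at -0.67 in electroacupuncture minus control are the called genes, and complex IV has medians of -0.06 and -0.09 in those comparisons.

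Upstream sequences are shown for the called genes, Ndufaf1 and Ndufc1, and for cytochrome c and Sdhd, which did not pass in any comparison. The window of Sdhd holds NRF-1, GABP and estrogen-related receptor motifs together. The last was found in 2 of 74 chain genes, so Sdhd is not a typical example. A link between motifs and the differences was not tested. Each line gives the 250 bases before the start of the gene, 5′ to 3′ on the minus strand that carries it, from RefSeq on GRCm38.p6, with motif matches in capitals.
Ndufaf1, chr2:119662835-119663084: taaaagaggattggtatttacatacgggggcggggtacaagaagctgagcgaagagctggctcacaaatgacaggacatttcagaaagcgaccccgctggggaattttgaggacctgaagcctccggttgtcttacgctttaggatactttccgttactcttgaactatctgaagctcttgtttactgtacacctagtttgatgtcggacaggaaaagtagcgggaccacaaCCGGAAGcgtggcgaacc
Ndufc1, chr3:51408956-51409205: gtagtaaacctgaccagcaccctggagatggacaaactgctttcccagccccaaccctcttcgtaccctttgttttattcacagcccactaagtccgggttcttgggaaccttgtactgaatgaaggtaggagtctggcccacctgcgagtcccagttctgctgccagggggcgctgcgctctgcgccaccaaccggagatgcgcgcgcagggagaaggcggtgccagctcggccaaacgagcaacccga
Cycs, chr6:50566570-50566819: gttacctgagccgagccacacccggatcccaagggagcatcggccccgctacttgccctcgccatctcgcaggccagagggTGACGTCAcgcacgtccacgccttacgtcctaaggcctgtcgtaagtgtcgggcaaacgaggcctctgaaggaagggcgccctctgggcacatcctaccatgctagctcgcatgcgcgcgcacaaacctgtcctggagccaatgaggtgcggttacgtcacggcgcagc
Sdhd, chr9:50603850-50604099: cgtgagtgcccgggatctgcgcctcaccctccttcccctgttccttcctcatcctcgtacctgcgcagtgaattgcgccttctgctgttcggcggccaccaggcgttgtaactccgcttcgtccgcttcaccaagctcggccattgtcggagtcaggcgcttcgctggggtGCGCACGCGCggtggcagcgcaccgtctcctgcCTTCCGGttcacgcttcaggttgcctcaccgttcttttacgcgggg
The capitals mark an ETS motif of the kind GABP binds (CCGGAAG) in Ndufaf1, a cAMP response element (TGACGTCA) in Cycs, and an NRF-1 motif (GCGCACGCGC, whose sixth base may be any) followed by an ETS motif read on the opposite strand (CTTCCGG) in Sdhd. Only exact letters were matched, and near matches stay in lower case. An example is tcgcatgcgc in Cycs, which departs from the NRF-1 motif in its first letter. Lower case therefore does not show that a site is absent.

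For 74 of the 91 genes a window of 300 bases was at hand, 250 before and 50 after the start, and it was searched on both strands for 5 motifs. The NRF-1 motif was found in 18 of 74 chain genes (24.3%) and in 5.19% of the 27025 genes with a window. Those 27025 were not limited to the 19938 genes measured and were not matched to the chain genes in base composition. The ETS motif CCGGAAG was also found in 18 (24.3%), against 9.93% of the 27025. The YY1 motif AAGATGGCG was in 7 chain genes (9.46% against 1.64%), among them Ndufc1, where the match lies after the start and so outside the printed bases. The estrogen-related receptor motif TCAAGGTCA was in 2, Atp5g3 and Sdhd (2.70% against 0.466%), in Sdhd again after the start, and the cAMP response element in 5 (6.76% against 2.03%). The end of the ETS motif can share its letters with the start of the YY1 motif, and the end letters of the receptor motif with those of the cAMP response element. By complex, the NRF-1 motif was in 6 of 31 windows of complex I, 2 of 3 of complex II, 1 of 5 of complex III, 1 of 13 of complex IV and 6 of 15 of complex V. A match describes the letters of the window and says nothing of binding in these muscles.

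Complex I, the NADH dehydrogenase, had its lowest differences in suspension among accessory subunits of its membrane arm. Ndufb3 had 6.72 and 6.63 on the suspension arrays, against 7.51 and 7.21 on the control arrays, a difference of -0.68 ± 0.15 (SE) that did not pass (adjusted p = 0.0762). Ndufb6 differed by -0.63 (adjusted p = 0.077), and Ndufc1 had 9.04 on both suspension arrays, against 9.67 and 9.59 in control (-0.59 ± 0.12, adjusted p = 0.0714). For these genes both suspension arrays lay below both control arrays, as they did for 19 of the 34 complex I genes (18.5% of all genes). Ndufab1, the mitochondrial acyl carrier protein that also serves fatty acid synthesis, differed by -0.60, the zinc-binding subunit Ndufs6 by -0.45 and Ndufs4, a subunit of the peripheral arm, by -0.40.

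The 6 core subunits of complex I measured here, which hold the flavin and the iron-sulphur clusters, had a median of -0.19, and the 28 accessory subunits a median of -0.24. Ndufs1, the largest of the iron-sulphur subunits, had 8.99 and 9.10 in suspension, against 9.30 and 9.43 in control (-0.32, adjusted p = 0.362). Ndufv1, the subunit that oxidizes NADH, differed by -0.15, which is about its standard error of 0.13. All 9 Ndufb genes lay below 0, with a median of -0.32, and so did 10 of the 13 Ndufa genes, Ndufab1 included, with a median of -0.19. Without control array 2 the medians were -0.04 for the core and -0.09 for the accessory subunits, and -0.19 for the Ndufb and -0.01 for the Ndufa genes. The highest value of the whole chain, Ndufa7 at 0.46, had 7.89 and 7.58 in suspension, against 6.88 and 7.68 in control: its control arrays differed by more than the groups did, and the groups overlapped.

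In the electroacupuncture group complex I had a median of -0.08 against suspension (-0.02 without electroacupuncture array 1) and of -0.35 against control (-0.16 without control array 2). Ndufc1 fell against control, with 8.91 and 9.01 in the electroacupuncture group, against 9.67 and 9.59 in control (-0.67 ± 0.12 SE, -37.1%, adjusted p = 0.043). Against suspension the same gene differed by -0.08 ± 0.12 (adjusted p = 1.00). Its call against control and lack of one in suspension therefore do not show a difference between the suspended groups. Ndufb3 (-0.71), Ndufab1 (-0.64), Ndufs1 and Ndufa9, a subunit near the quinone site (both -0.51), followed without passing. A second transcript cluster of Ndufc1, which reads the same RNA, gave -0.70 with electroacupuncture and -0.60 in suspension, both against control. The call of Ndufc1 held without control array 2 (adjusted p = 0.0411) and missed 0.05 in the fits that left out control array 1 (0.0681), suspension array 1 (0.0966), suspension array 2 (0.0982), electroacupuncture array 1 (0.41) or electroacupuncture array 2 (0.261).

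The 7 complex I assembly factors help to build the complex and are no part of the finished enzyme. All 7 had both suspension arrays below both control arrays (18.5% of all genes). They ran from -0.83 (Ndufaf1) to -0.14 (Ndufaf7), with Ndufaf3 at -0.36. In the electroacupuncture group Ndufaf1 had 7.81 and 7.91, above 7.73 and 7.61 in suspension and below 8.46 and 8.54 in control. It differed by 0.19 ± 0.13 from suspension (adjusted p = 1.00) and by -0.64 from control (adjusted p = 0.0591). The class median was 0.02 against suspension and -0.26 against control, and Ndufaf3 differed from control by -0.57 (adjusted p = 0.103). The fall of Ndufaf1 in suspension held without either control array (adjusted p = 0.0343 and 0.0422) and was no longer past the threshold without suspension array 1 (0.111), suspension array 2 (0.157) or either electroacupuncture array (0.0768 and 0.0769), in fits with 2 residual degrees of freedom.

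**Figure D2:**
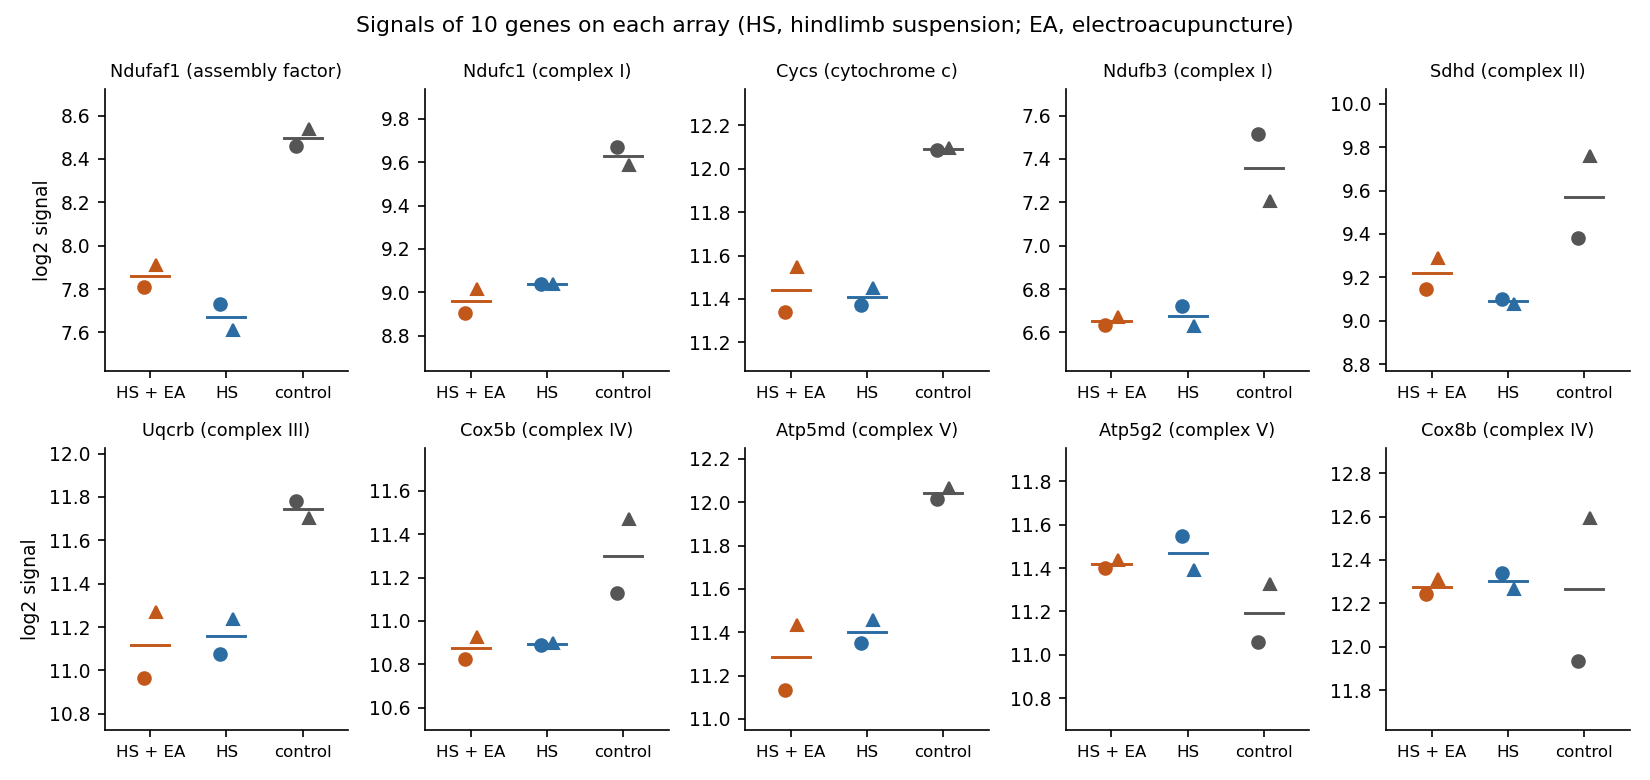
Log2 signals of 10 genes on the 2 arrays of each group (circle, array 1; triangle, array 2; line, group mean), with hindlimb suspension plus electroacupuncture (HS + EA) at the left, hindlimb suspension (HS) in the middle and control at the right; every panel spans the same range of log2 units. For Ndufaf1, Ndufc1, Cycs, Ndufb3, Sdhd, Uqcrb, Cox5b and Atp5md all 4 suspended arrays lie below both control arrays (11.7% of all genes). Atp5g2 lies above control and Cox8b overlaps it.

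Complex II, succinate dehydrogenase, links the tricarboxylic acid cycle to the chain and is encoded by 4 nuclear genes, all measured. All 4 were below control in suspension. The membrane anchor Sdhd had 9.10 and 9.08 on the suspension arrays, against 9.38 and 9.76 in control (-0.48, adjusted p = 0.21), and the other anchor, Sdhc, differed by -0.10 with overlapping groups. The iron-sulphur subunit Sdhb differed by -0.35 and the flavoprotein Sdha by -0.24. With electroacupuncture, Sdhb had 9.75 and 9.91, against 10.03 and 10.17 in suspension and 10.34 and 10.55 in control. Its difference was -0.27 ± 0.14 from suspension (adjusted p = 1.00) and -0.61 ± 0.14 from control (adjusted p = 0.0954). Sdhd went the other way against suspension, at 0.13, and differed from control by -0.35, so the subunits of the same complex did not keep 1 order. Both electroacupuncture arrays lay below both control arrays for all 4 genes (20% of all genes).

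Complex III, the cytochrome bc1 complex, had all 9 measured genes below 0 in suspension. The accessory subunit Uqcrb was lowest, with 11.08 and 11.24 in suspension, against 11.78 and 11.70 in control (-0.59, adjusted p = 0.118). Uqcrfs1, the Rieske iron-sulphur protein, differed by -0.48, and Cyc1, cytochrome c1, by -0.34. Uqcrc1, a core protein on the matrix side, differed by -0.15, which is about its standard error of 0.13. Against suspension the electroacupuncture group was below 0 for all 9, with a median of -0.14, which was -0.06 and -0.26 without electroacupuncture arrays 1 and 2. Cyc1 had 9.53 and 9.79 there, against 9.92 and 9.85 in suspension (-0.23), and Uqcrc1 differed by -0.21. Against control the median was -0.37, with Uqcrfs1 at -0.64 and Uqcrb at -0.62 (adjusted p = 0.1 and 0.105). The median against control was -0.26 and -0.50 without electroacupuncture arrays 1 and 2, and -0.54 and -0.33 without control arrays 1 and 2.

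Cycs encodes the somatic cytochrome c, the mobile carrier between complexes III and IV, which also triggers apoptosis once released. It had 11.34 and 11.55 in the electroacupuncture group, 11.37 and 11.45 in suspension, and 12.09 and 12.10 in control. The electroacupuncture difference from control was -0.65 (adjusted p = 0.0654) and the suspension difference -0.68 ± 0.13 (SE, -37.7%, adjusted p = 0.0588), both just outside the threshold. Between the suspended groups it was 0.03, with a 95% interval from -0.27 to 0.34. The control arrays were within 0.01 of each other, the reverse of the pattern in most chain genes. The 3 transcript clusters of Cycs gave -0.68, -0.71 and -0.75 in suspension. The suspension difference passed in 4 of 16 other settings, and its adjusted p ran from 0.0230 with quantile normalization repeated to 0.324 without suspension array 1 (0.287 without suspension array 2).

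Complex IV, cytochrome c oxidase, accepts the electrons and reduces oxygen. Of its 19 genes 13 were below 0 in suspension and 6 above. Cox5b, a zinc-binding subunit, was lowest, with 10.89 and 10.90 in suspension, against 11.13 and 11.47 in control (-0.40, adjusted p = 0.292). Ndufa4 (-0.29), Cox6c (-0.27), Cox5a (-0.20) and Cox4i1 (-0.16) also had both suspension arrays below both control arrays. With Cox5b these were 5 of the 19 genes, or 26.3%, not far from the 18.5% of all genes. The other genes of the complex had groups that overlapped, except Cox8c, the testis isoform of subunit 8. Cox8c lay above control by 0.15 without overlap (21.3% of all genes). The control gap was widest here, with a median of 0.36 between the control arrays, against 0.22 over the whole chain. The median difference of complex IV in suspension was -0.25 without control array 1 and 0.13 without control array 2, so its direction rests on which control array is used. The same held against control in the electroacupuncture group, where the median of -0.09 was -0.33 and 0.10 without control arrays 1 and 2.

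Several complex IV subunits come as a heart and muscle isoform and a ubiquitous one, and the pairs were set side by side. Cox6a2, the muscle form of subunit 6a, had 12.37 and 12.31 in suspension, against 12.16 and 12.52 in control, a difference of 0.00 with a 95% interval from -0.36 to 0.37. Its ubiquitous partner Cox6a1 differed by -0.14. Muscle-type Cox7a1 had 11.42 and 11.31 in suspension, against 11.19 and 12.07 in control (-0.26, interval -0.82 to 0.30), and Cox7a2 differed by 0.09. Muscle-type Cox8b differed by 0.04 (interval -0.42 to 0.50) and Cox8a by -0.03. The medians of the 3 muscle forms and of the 3 partners, 0.00 and -0.03, lay close to each other, but were -0.29 and -0.33 without control array 1 and 0.19 and 0.32 without control array 2, and every one of the 3 muscle-form intervals reaches below -0.30 and to 0.30 or above. Cox4i2, the lung form of subunit 4, differed by -0.03, Cox6b1 by -0.08, Cox6b2, the testis form of subunit 6b, by -0.04, and Cox7a2l, a supercomplex factor, by 0.05. Of these isoform values, those of Cox4i2, Cox6a1, Cox6a2, Cox6b1, Cox6b2, Cox7a1, Cox7a2, Cox7a2l, Cox8a and Cox8b changed sign when some 1 array was left out.

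**Figure D3:**
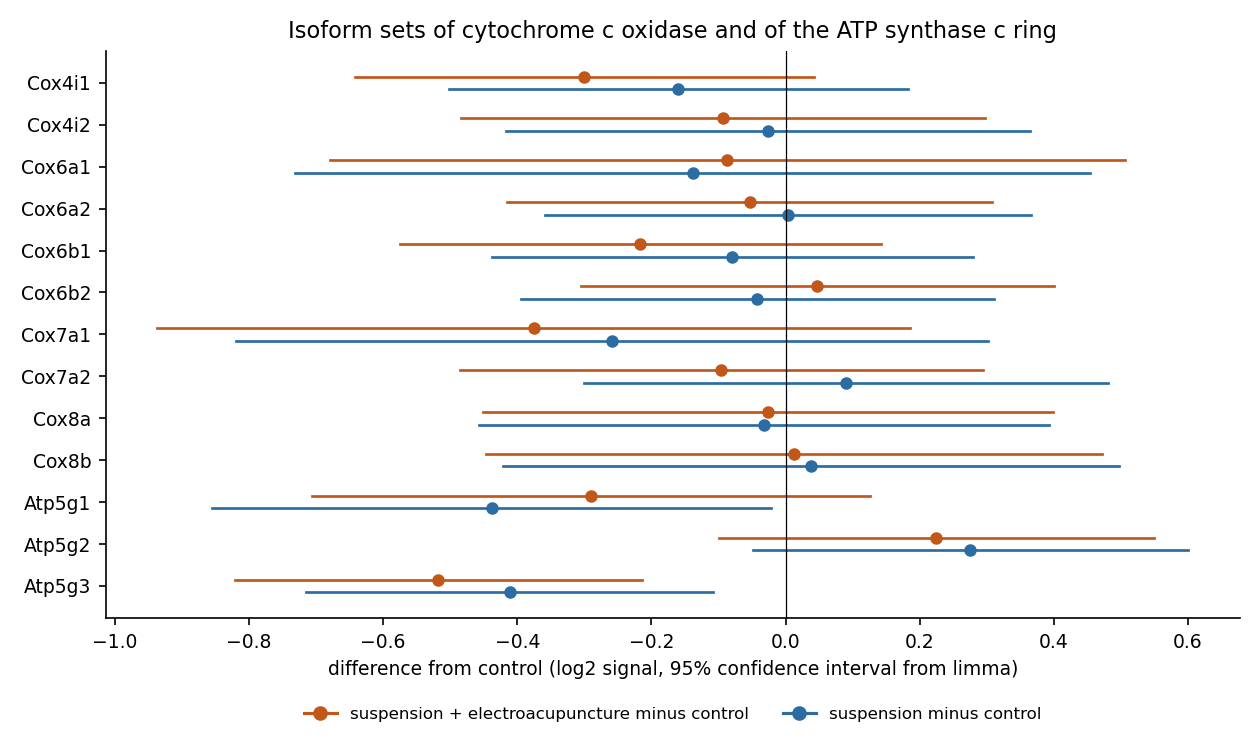
Log2 differences from control with 95% confidence intervals from limma for isoforms of cytochrome c oxidase and the 3 ring genes of ATP synthase, with suspension plus electroacupuncture (orange, upper) and suspension (blue, lower) in each row. The muscle forms Cox6a2 and Cox8b lie at 0.00 and 0.04 in suspension, while among the ring genes Atp5g1 and Atp5g3 lie below 0 and Atp5g2 above it.

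Ndufa4l2, a paralog of Ndufa4 that is induced by hypoxia, had the highest difference of the chain between the suspended groups, with 5.73 and 5.79 in the electroacupuncture group, against 5.68 and 5.32 in suspension (0.26, adjusted p = 1.00). In suspension it differed from control by -0.06. Its suspension arrays differed by more than the groups did.

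In complex V the medians in suspension were -0.41 for the 3 genes of the c ring, -0.37 for the 4 of the peripheral stalk, -0.16 for the 5 of the membrane part and for the catalytic pair, and -0.11 for the other 3 genes of the F1 head. Without control array 2 they were -0.17 for the c ring, -0.08 for the membrane part and 0.10 for the other F1 genes. The membrane genes spread widely. Atp5md, which encodes DAPIT, a small membrane subunit linked to ATP synthase dimers, had 11.35 and 11.45 in suspension, against 12.02 and 12.06 in control (-0.64 ± 0.15, adjusted p = 0.0909). The stalk subunits Atp5h and Atp5pb differed by -0.56 and -0.52, while a second transcript cluster of Atp5pb gave -0.16. All 4 stalk genes, on the clusters used, were below 0 without overlap (18.5% of all genes). The catalytic pair, Atp5a1 (F1 alpha) and Atp5b (F1 beta), differed by -0.21 and -0.11, with no overlap but small distances. Of the other membrane genes, the small proteolipid Atp5mpl differed by -0.33, Atp5k (subunit e) by -0.16, Atp5j2 (subunit f) by -0.07 and Atp5l (subunit g) by 0.11. These parts of the enzyme were not tested against each other.

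The ring that turns as protons pass is made of subunit c, encoded by 3 genes with the same mature protein. They differed in direction. Atp5g3 had 11.02 and 10.87 in suspension, against 11.36 and 11.35 in control (-0.41), and Atp5g1 had 11.87 and 11.69, against 11.96 and 12.48 (-0.44). Atp5g2 was higher on both suspension arrays, at 11.55 and 11.39, than on the control arrays, at 11.06 and 11.33 (0.28 ± 0.14, adjusted p = 0.486). Its 3 transcript clusters gave 0.25, 0.28 and 0.29. With electroacupuncture the differences from control were -0.52 for Atp5g3, -0.29 for Atp5g1 and 0.23 for Atp5g2, and none of the 3 genes passed in any comparison. Without control array 2, Atp5g1 differed by only -0.03 with electroacupuncture and by -0.17 in suspension. Without control array 1, Atp5g2 differed by 0.09 with electroacupuncture and by 0.14 in suspension, still above 0. Near-identical coding stretches of these genes, and pseudogenes of several chain genes, may share probes, which was not tested.

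With electroacupuncture, complex V had a median of -0.05 against suspension (0.01 without electroacupuncture array 1) and of -0.24 against control (-0.12 without control array 2). Atp5md was lowest of the whole chain against control, with 11.13 and 11.44 in the electroacupuncture group, against 12.02 and 12.06 in control (-0.76 ± 0.15, -40.8%, adjusted p = 0.053). Atp5pb differed from control by -0.55 (-0.15 in its second transcript cluster) and Atp5h by -0.48. Against suspension, Atp5md differed by -0.12, Atp5l, the subunit g gene, by -0.23 and Atp5g1 by 0.15, none of which passed.

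The comparison of electroacupuncture with suspension alone asks whether the treatment altered the unloaded muscle. The chain genes of the treated soleus lay at or slightly below those of suspension, and none passed. No gene of the 19938 passed in limma in this comparison (0% lower and 0% higher), while 4 did with array weights, 3 with the compared groups alone or without either control array, and 1 with the robust prior or without suspension array 2. At an unadjusted p under 0.05 the chain had 0 genes in either direction, where 1.5% of all genes were lower and 1.56% higher, 612 in all. The median over the 91 genes was -0.07, against -0.01 over all genes, with a range from -0.37 (Ndufb2) to 0.26 (Ndufa4l2). Differences were below 0 for 69 of 91 chain genes and 51.6% of all genes. Ndufb2, an accessory subunit of complex I, had 5.21 and 5.82 in the electroacupuncture group, against 5.91 and 5.85 in suspension, so its value rests on electroacupuncture array 1.

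The same array carried most of the shift. Averaged over the chain, it lay 0.35 below the control mean and electroacupuncture array 2 lay 0.22 below, against 0.21 and 0.24 below for the suspension arrays. Electroacupuncture array 2 exceeded array 1 in 79 of 91 genes and in 9 of 9 slow-fibre markers. Without electroacupuncture array 1 the median between the suspended groups was -0.01, with 48 of 91 below 0, and without array 2 it was -0.14, with 73 below 0. The groups did not overlap for 31 genes on the lower side (17.1% of all genes) and 7 on the higher side (15.4% of all genes). The 7 were Ndufb6, Sdhd, Ndufa4l2, Atp5d, Atp5g1, Ndufaf1 and Ndufaf2. The class medians were -0.08, -0.10, -0.14, -0.05 and -0.05 for complexes I to V, 0.02 for the assembly factors and 0.03 for cytochrome c. For complexes I to V they were -0.02, -0.04, -0.06, 0.01 and 0.01 without electroacupuncture array 1, and -0.14, -0.16, -0.26, -0.12 and -0.09 without array 2.

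**Figure D4:**
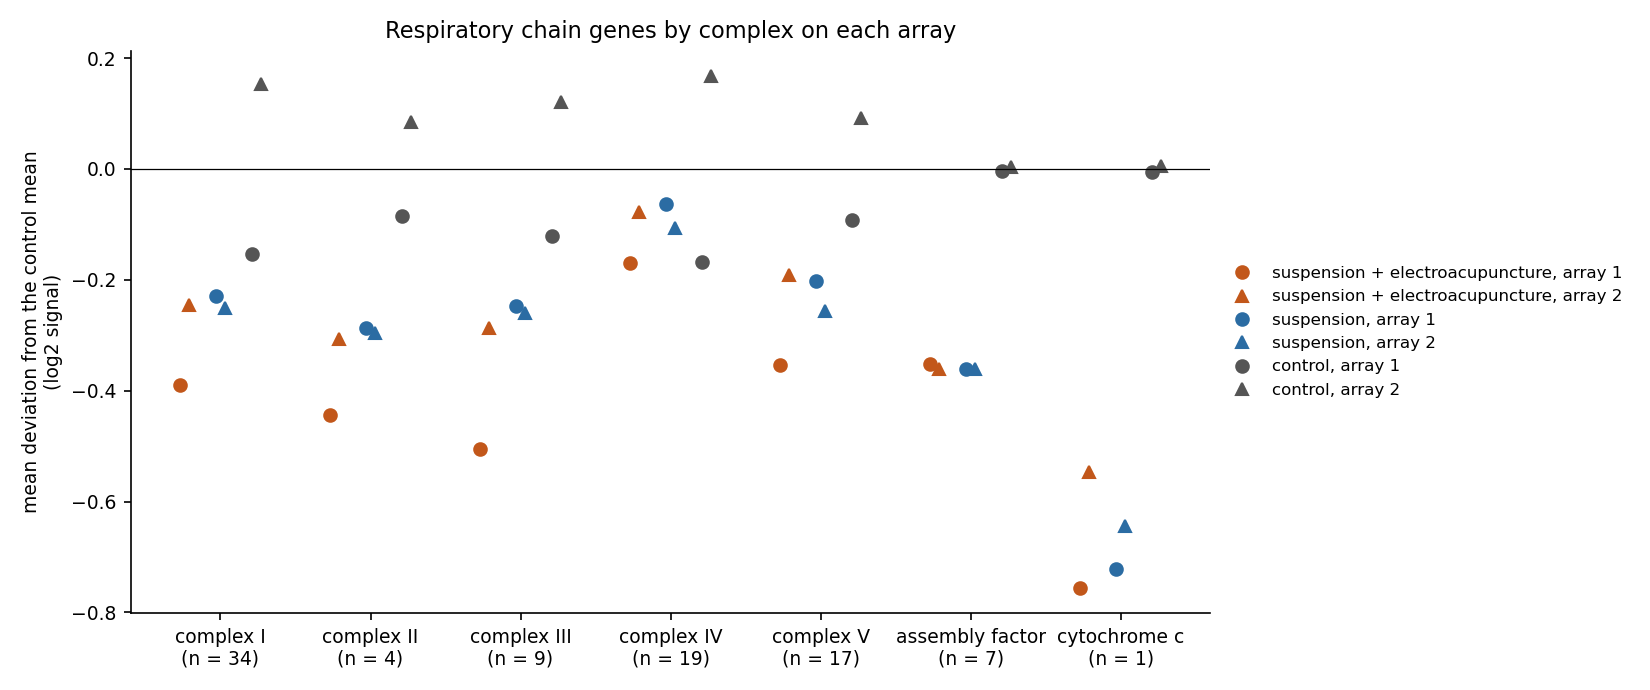
Mean deviation of the genes of each class from the control mean on each of the 6 arrays (log2 signal; n, number of genes), with suspension plus electroacupuncture in orange, suspension in blue and control in grey. The suspended arrays lie below both control arrays except in complex IV, where control array 1 lies among them, and electroacupuncture array 1 is the lowest array in complexes I to V and in cytochrome c.

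Set against control, the chain genes of the treated muscle also lay mostly lower, in a comparison that shares its control arrays with the first and is not independent of it. Of the 91 genes 1, Ndufc1, was lower and 0 higher at an adjusted p under 0.05, where 0.587% of all genes were lower and 0.446% higher. At an unadjusted p under 0.05, 35 were lower and 0 higher, against 6.34% and 6.47% of all genes, and the 35 became 63 and 30 without control arrays 1 and 2, and 13 without electroacupuncture array 1. The median was -0.29, from -0.76 (Atp5md) to 0.25 (Ndufa7), and 83 of 91 differences were below 0, against 49% of all genes. Without control arrays 1 and 2 the count below 0 was 85 and 69. Both electroacupuncture arrays lay below both control arrays for 56 genes (20% of all genes) and above both for 2, Atp5g2 and Ndufa4l2 (21.8% of all genes). Medians were -0.35, -0.34, -0.37, -0.09 and -0.24 for complexes I to V. They were -0.46, -0.42, -0.54, -0.33 and -0.36 without control array 1, and -0.16, -0.27, -0.33, 0.10 and -0.12 without control array 2. The median over the 91 genes was -0.42 and -0.15 without control arrays 1 and 2.

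All 4 suspended arrays, treated or not, lay below both control arrays for 48 of the 91 genes, against 11.7% of all genes. Among them were 3 of the 4 complex II genes, 5 of the 9 of complex III and 5 of the 19 of complex IV. The lowest array of a gene was electroacupuncture array 1 in 54 cases and control array 1 in 19, and the highest was control array 2 in 70.

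Because the control arrays differed, the chain was divided by that gap. The 45 genes with the smallest gap, up to 0.22, had a median suspension difference of -0.24, and 43 of them were below 0. The 46 genes with the largest gap had a median of -0.14, with 37 below 0. Of the 19 complex IV genes, 7 were in the first set and 12 in the second. The largest gaps were those of Ndufa6, at 1.00, and Cox6a1, at 0.93. Both measures use the control arrays, so their relation is a description only. The part that the fat and slow-fibre markers of control array 2 have in these values was not tested.

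**Figure D5:**
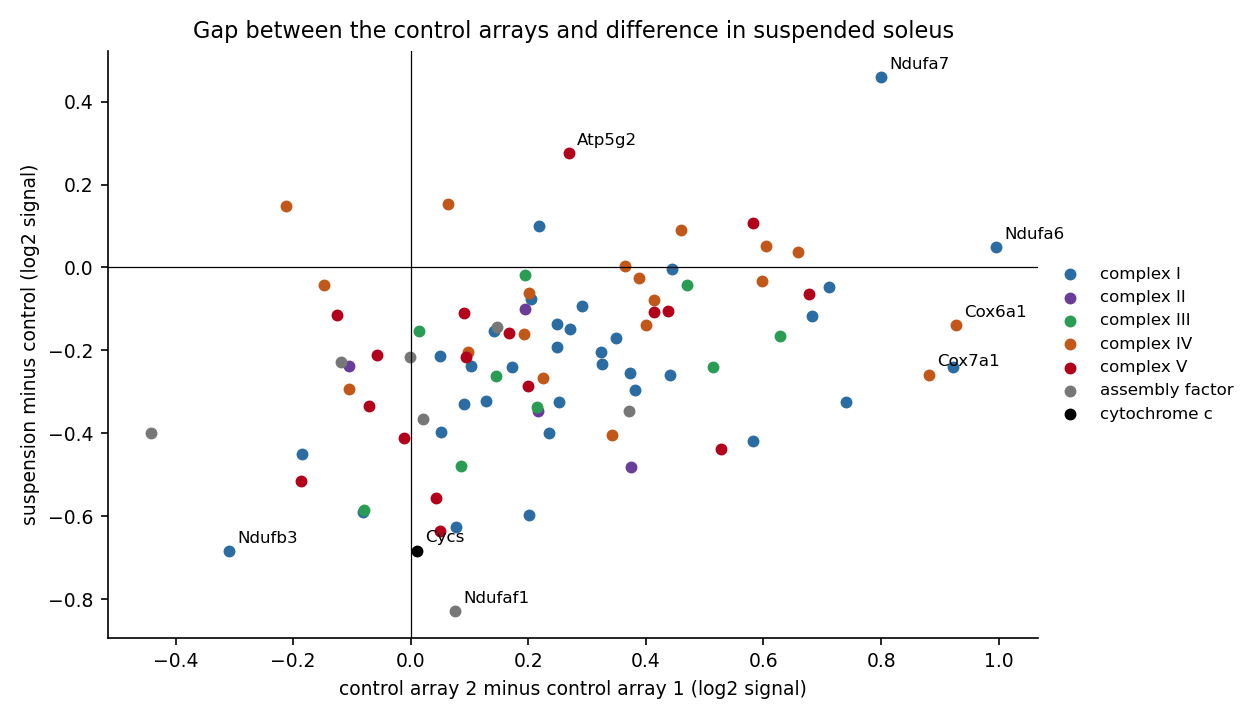
Each point is 1 of the 91 genes, coloured by class, with the gap between the control arrays (array 2 minus array 1, log2) on the horizontal axis and the suspension minus control difference (log2) on the vertical axis. Ndufaf1 and Cycs combine a small gap with differences of -0.83 and -0.68, while Ndufa6 and Cox6a1 have gaps of 1.00 and 0.93 and differences of 0.05 and -0.14.

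Genes around the chain were counted from lists outside the naming rule. Of 38 measured assembly factors for complexes I to V other than the Ndufaf genes, none passed in suspension and 33 were below 0 (median -0.23), with 15 lower and 0 higher at an unadjusted p under 0.05. Of all genes 48.9% were below 0, and 6.09% were lower and 6.63% higher at that threshold. Without control array 1 there were 5 calls among these factors in suspension. With electroacupuncture 1 was lower than control, Cox11, which delivers copper to complex IV (-0.92, adjusted p = 0.0325). A list of 16 genes held ubiquinone synthesis and other electron entry, with Hccs, which attaches heme to cytochrome c, and the testis cytochrome c gene Cyct, which was at background. In it Coq3, a methyltransferase of ubiquinone synthesis, fell in both suspended groups. It had 7.35 and 7.26 in the electroacupuncture group, 7.06 and 7.15 in suspension, and 8.00 and 8.14 in control (-0.76 and -0.96 from control, adjusted p = 0.0334 and 0.016). Coq7, a hydroxylase of the same route, was lower with electroacupuncture (-0.88, adjusted p = 0.043). Each of these calls was lost without either array of its suspended group. In suspension Coq3 then had an adjusted p of 0.111 and 0.0829 without suspension arrays 1 and 2, and 0.0529 and 0.053 without electroacupuncture arrays 1 and 2. With electroacupuncture, Coq3 had 0.254 and 0.287, Coq7 0.382 and 0.227 and Cox11 0.324 and 0.172 without electroacupuncture arrays 1 and 2. Those electroacupuncture calls were also lost without either suspension array, and without control array 1 for Coq7 (0.105) and control array 2 for Coq3 (0.0579) and Cox11 (0.0671).

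Of 16 transcriptional regulators of the subunit genes 1 passed, Ppargc1a, which encodes PGC-1alpha. It had 7.86 and 7.57 in the electroacupuncture group, 7.50 and 7.65 in suspension, and 8.79 and 9.49 in control, and so fell by 1.42 with electroacupuncture and by 1.56 in suspension on the log2 scale (adjusted p = 0.0252 and 0.0189). The other 15 did not pass, among them Esrrg (-0.64), Esrra (-0.19), Nrf1 (0.13), Gabpa (-0.05) and Tfam (-0.27) in suspension, and the list median was -0.14. Of 8 genes of ATP export and uncoupling 1 passed, Ckmt2, the mitochondrial creatine kinase that hands energy from the chain to the cytosol. It had 9.60 and 9.91 in the electroacupuncture group, 9.82 and 9.85 in suspension, and 10.81 and 11.08 in control, and differed from control by -1.19 and -1.11 (adjusted p = 0.0135 and 0.0189). Without electroacupuncture arrays 1 and 2 the electroacupuncture calls were lost for Ppargc1a (adjusted p = 0.144 and 0.217) and Ckmt2 (0.16 and 0.0865), and without suspension arrays 1 and 2 the suspension calls were lost for Ppargc1a (0.123 and 0.0913) and Ckmt2 (0.127 and 0.121). The electroacupuncture call of Ppargc1a was also just lost without suspension array 2 (0.0502). Between the suspended groups no gene of these 4 lists passed, and at an unadjusted p under 0.05 there was 1 lower and 1 higher. Both were among the 38 assembly factors, the longest list, and of all genes 1.5% were lower and 1.56% higher at that threshold.

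Markers of fibres and other cells were set beside the chain. Of 9 slow-fibre genes 1 passed with electroacupuncture, Myl3, a myosin light chain, with 11.19 and 11.64 in that group, against 12.30 and 12.53 in control (adjusted p = 0.0377), and none passed in suspension. That call held without control array 1 and was lost without any other array. The slow-fibre medians against control were -0.26 with electroacupuncture and -0.44 in suspension, and without control array 2 they were -0.06 and -0.16. Myh7, the slow myosin heavy chain, differed by -0.02 with electroacupuncture and by -0.14 in suspension. Of 7 fast-fibre genes, Actn3, Myh1, Myh4 and Pvalb rose and Myh2, the myosin of fast oxidative fibres, fell, in both suspended groups against control. With electroacupuncture these 5 calls became 1 and 0 without electroacupuncture arrays 1 and 2, and 3 and 2 without suspension arrays 1 and 2. In suspension they became 0 and 1 without suspension arrays 1 and 2, and 3 without either electroacupuncture array.

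The 7 fibroblast and tendon genes had medians of -0.65 with electroacupuncture and of -0.63 in suspension, with 6 of 7 below 0 in each. Dcn lay above control, by 0.45 with electroacupuncture and by 0.17 in suspension. Fmod differed from control by -0.04 with electroacupuncture and by -0.89 in suspension. Tnmd, which encodes tenomodulin of tendon, fell against control with electroacupuncture (-1.20, adjusted p = 0.0111) and in suspension (-1.94, adjusted p = 0.00307), and Scx, a tendon transcription factor, was lower with electroacupuncture (-0.96, adjusted p = 0.0334). The suspension call of Tnmd held without any 1 array. The electroacupuncture calls of both were lost without either electroacupuncture array, and that of Scx also without control array 2 or either suspension array. Of 5 endothelial genes Kdr, a receptor of vascular growth factor, was lower with electroacupuncture than in control (-1.28, adjusted p = 0.0135), a call lost without either electroacupuncture array. All 5 lay lower with electroacupuncture than in suspension without overlap (17.1% of all genes), with a median of -0.26 and none passing. Between these groups 6 of 7 adipocyte genes lay higher without overlap (15.4% of all genes), and none passed. The other, Fabp4, lay lower without overlap (17.1% of all genes), at 9.21 and 9.14 with electroacupuncture and 9.25 and 9.23 in suspension. Of the 7 fibroblast and tendon genes 4 lay higher with electroacupuncture than in suspension and 3 lower. At an unadjusted p under 0.05 in limma 2 were higher, Fmod (0.85) and Tnmd (0.75), and 0 lower, where 1.56% and 1.5% of all genes were, and none passed. Macrophage markers deviated from the control mean by 0.91 and 0.52 on the electroacupuncture arrays and by 0.62 and -0.0038 on the suspension arrays. The part of these markers in the values of the chain genes was not tested.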

How the data were processed

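The log2 signals of 35556 transcript clusters were deposited as the authors made them, by RMA in Affymetrix Expression Console, per the submitters' processing notes; the version and the genome build are not given in the sources used here. RMA corrects background, quantile-normalizes the arrays and summarizes the probes of a cluster. They were used unchanged. Clusters with 1 gene symbol (21789) were kept, and for a gene with several the cluster with the highest mean signal, which left 19938 genes. The 1621 clusters with several symbols and the 12146 with none were left out. All 91 chain genes matched a current Entrez entry and 18 had several clusters. For 3 of the 18, Atp5l, Cox7a2l and Uqcr11, the clusters had opposite signs in suspension minus control. Quantile normalization makes every signal relative to the other genes of its array, so a change of total RNA is not seen. The number of arrays limits the precision.

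All genes were fitted together over the 6 arrays with limma 3.58.1 in R 4.3.3 (lmFit, then eBayes with a mean-variance trend), with group as the only term, 3 residual and 5.88 prior degrees of freedom, and Benjamini-Hochberg adjustment over 19938 genes at a threshold of 0.05. The code of the fit was run on simulated arrays with known changes. Their errors were independent, with variances drawn from the prior of this fit and no shift shared by an array. That run therefore checks the code and not how the fit copes with the gap between the control arrays. Errors are standard errors (SE) from limma unless stated, and intervals are 95% intervals. Lists have counts and medians and no test.

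Genes were named by a rule: those past the threshold, up to 6 genes of a class by smallest p, a fixed set of core subunits and isoforms, and the ends of each range. Ndufa6, Cox7b2, Atp5k, Atp5j2 and genes in counts of chain genes were named outside it, as were Coq3, Coq7, Cox11, Ppargc1a, Ckmt2, the other regulators with values and the named cell type markers, chosen after their values were seen. The genes and lists were chosen with earlier results of these data known.

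The alternatives were array weights, the compared groups alone, cyclic loess, median centring, quantile normalization again, a filter at the median gene, the mean of a gene's clusters, no trend, a robust prior, a replicate block, a threshold of 0.10 and each array left out.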

Additional observations from a re-analysis of the deposited data

How the results depend on the processing

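The counts of chain genes past the threshold were small and moved with most settings. In suspension minus control the 1 gene became 0 with the compared groups alone, without the mean-variance trend and with the replicate block, 2 with the robust prior, 3 with cyclic loess and with the filter at the median gene, 4 with quantile normalization again and 6 at the looser threshold of 0.10, and it ran from 0 to 2 with 1 array left out. In electroacupuncture minus control the 1 gene became 0 with array weights, the compared groups alone, the mean of clusters, no trend and the replicate block, 2 with the robust prior, 5 with cyclic loess and with the filter, 6 with quantile normalization again and at 0.10, and it ran from 0 to 2 with 1 array left out. In electroacupuncture minus suspension it was 0 in each setting. Over all genes the replicate block called 127 genes for electroacupuncture and 102 for suspension, both against control, against 206 and 209 without it. The labels give replicate numbers 1 and 2 with no shared source. Differences between arrays 1 and 2 correlated at -0.16 between control and suspension, 0.02 between control and electroacupuncture and -0.02 between the suspended groups, so the numbers were not taken to pair the arrays. With the filter the number of genes tested fell to 9969. The cause of the other changes was not tested.

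Ndufaf1 in suspension stayed past the threshold in 9 of 16 settings (adjusted p 0.0123 to 0.157), and Ndufc1 with electroacupuncture against control in 6 of 16 (0.0305 to 0.41). Cycs in suspension passed in 4 of 16. Outside the chain, Ppargc1a passed in 13 of 16 settings with electroacupuncture, Ckmt2 in 14, Cox11 in 9, Coq3 in 8 and Coq7 in 7, and in suspension Ppargc1a and Ckmt2 passed in 14 and Coq3 in 11. The replicate block ended the electroacupuncture calls of Coq3 (adjusted p = 0.0755) and Coq7 (0.0889).

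With 1 array left out, the median of all chain genes ran from -0.33 to -0.083 in suspension minus control and from -0.42 to -0.15 in electroacupuncture minus control. By class, suspension minus control gave complex I -0.39 to -0.070, complex III -0.44 to -0.15, complex IV -0.25 to 0.13, complex V -0.31 to -0.16 and the assembly factors -0.35 to -0.22. Electroacupuncture minus control gave complex I -0.46 to -0.16, complex III -0.54 to -0.26, complex IV -0.33 to 0.10, complex V -0.36 to -0.12 and the assembly factors -0.42 to -0.23. Electroacupuncture minus suspension gave complex I -0.14 to -0.019, complex II -0.16 to -0.039, complex III -0.26 to -0.064, complex IV -0.12 to 0.0095, complex V -0.085 to 0.014 and the assembly factors -0.061 to 0.090. Other settings moved only the median of the assembly factors by more than the spread between arrays: -0.36 with cyclic loess and -0.29 with the filter in suspension minus control, 0.048 with cyclic loess, -0.029 with the filter, 0.016 with median centring and 0.043 with quantile normalization again in electroacupuncture minus suspension, and -0.262 with cyclic loess, -0.33 with the filter and -0.27 with median centring in electroacupuncture minus control. That spread, the pooled SD of the array means, was 0.0045 for the assembly factors and from 0.089 to 0.14 for complexes I to V. Even small shifts of the assembly factors exceeded it, so this does not show that they depend more on the processing.

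Of 100 gene results, 18 changed sign without some 1 array, and none did in another setting. Their ranges in suspension minus control were Cox4i2 -0.22 to 0.17, Cox6a1 -0.60 to 0.32, Cox6a2 -0.18 to 0.19, Cox6b1 -0.29 to 0.13, Cox6b2 -0.12 to 0.032, Cox7a1 -0.70 to 0.18, Cox7a2 -0.14 to 0.32, Cox7a2l -0.25 to 0.36, Cox8a -0.33 to 0.27, Cox8b -0.29 to 0.37, Ndufa4l2 -0.24 to 0.12, Sdhc -0.21 to 0.0063 and Uqcr11 -0.12 to 0.079. In electroacupuncture minus suspension they were Atp5md -0.27 to 0.032 and Cycs -0.072 to 0.14, and in electroacupuncture minus control Cox7a1 -0.82 to 0.065, Cox8b -0.32 to 0.34 and Ndufa7 -0.15 to 0.65.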
